A study of Mus musculus with 10 samples.

Results

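Solute carriers are membrane proteins that move amino acids, sugars, nucleosides, metals, ions and vitamins across the plasma membrane and the membranes of organelles. The genes are named Slc, followed by a family number, the letter a and a member number. All genes of the mRNA-sequencing table whose symbol begins in this form were taken, which gave 163 of 10767 genes (1.51%). Of these, 158 encode carriers or accessory chains of carriers. The other 5 share the prefix without being carriers: Slc9a3r1 and Slc9a3r2 encode scaffold proteins that bind sodium/proton exchangers, Slc4a1ap and Slc7a6os are named after carriers, and Slc2a4rg-ps is listed as a pseudogene.

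The cells were CD8+ conventional dendritic cells (cDC1) from mouse spleen, the DC subset known for cross-presentation of antigen to CD8+ T cells. They were sorted as CD11c+MHCII+CD8+CD11b- cells from untreated Ppef2+/+ and Ppef2-/- mice, matched for sex and age at 8 to 13 weeks. Ppef2-/- mice carried a gene trap upstream of exon 5 of Ppef2, which encodes a calcium-binding protein phosphatase, and came from JM8A3.N1 embryonic stem cells and crosses with C57BL/6 mice. Each genotype was sorted 5 times with 3 pooled mice per library, so that there were 10 libraries, and a mouse-to-mouse spread was not measured. The question was whether mRNA of the carriers differed between Ppef2-/- and Ppef2+/+ cDC1 of the same sort.

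Dendritic cells use carriers in several compartments. CD98, the heavy chain encoded by Slc3a2, pairs with light chains such as the one of Slc7a5 to exchange large neutral amino acids, which are sensed by the kinase complex mTORC1 at lysosomes. Carriers of the endolysosome, such as those of Slc15a3, Slc15a4, Slc29a3 and Slc46a3, empty this compartment of the products of digestion, and Slc15a4 is required for responses of some Toll-like receptors to nucleic acids. Most members of the SLC25 family exchange nucleotides, phosphate and metabolites across the inner mitochondrial membrane.

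Values are normalized counts as deposited, in which the mean of each sort had been removed for each gene (the libraries of a sort add up to a constant). The difference of Ppef2-/- minus Ppef2+/+ within a sort is not affected by this step, but the spread between sorts is missing and both genotypes have the same SD for nearly every gene. Where all values of a gene were below 1000, whole reads could be calculated back, and reads times the value of 1 read gave normalized counts with the sort means put back. This was possible for 153 of the 163 genes. In the genes resolved in this way, Ppef2+/+ libraries held 1396259 to 2273488 reads and Ppef2-/- libraries 1507755 to 4408898 reads. A resolved carrier gene had a median of 127 reads per library, with a range of 95 to 9103 reads over all 10 libraries together. Reads of Ppef2 summed to 816 over the Ppef2+/+ and to 18 over the Ppef2-/- libraries, in the direction of the labels. All 15 cDC1 markers were in the table, among them Irf8 with 13561 ± 351 and Clec9a with 4323 ± 196 (SD, n = 5) normalized counts in Ppef2+/+ libraries. Of the markers of other cells, 2 of 7 genes of B cells, 1 of 8 of T cells, 7 of 8 of plasmacytoid DC, 6 of 7 of cDC2, 11 of 14 of macrophages and monocytes, 5 of 13 of erythroid cells and 2 of 7 of neutrophils were in the table, whereas Cd79a, Cd3e, Cd3d and Cd3g were not listed. The summed level of the plasmacytoid DC markers was 1128 to 1273 normalized counts in Ppef2+/+ and 977 to 1119 in Ppef2-/- libraries as deposited, without the spread between sorts. In the blocked limma fit described below, 0 of the 7 had an adjusted p under 0.05. Tcf4 (log2 difference -0.31) and Siglech (-0.25) were lower at an unadjusted p under 0.05, whereas Bst2 (-0.05) and Ccr9 (0.03) were near 0. The part of these markers in the genotype differences given here was not tested. In such bulk samples, fewer cells of a type and less RNA per cell cannot be told apart.

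To compare the levels of different carriers, normalized counts were divided by the length of all exons of the gene in kb. The SD of these levels, and overlap of libraries between carriers, refer to the deposited values and leave out the spread between sorts. For Slc20a1 in Ppef2+/+ libraries, 772 ± 42.9 normalized counts as deposited became 772 ± 252 with the sort means put back. The carriers spanned a wide range in Ppef2+/+ cDC1, from 1344 ± 46.8 (SD, n = 5) normalized counts per kb for Slc25a5 down to 1.47 for the lowest gene of the inorganic ion class. The 10 most abundant carriers made up 43.2% of the summed level per kb of all carriers. With a median of 142 normalized counts per gene before division by length, the Slc genes were close to the table as a whole (median 170), and together they held 0.786% of all normalized counts in either genotype. By level per kb, 8 of the 163 were among the highest 10% of genes.

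**Figure D1:**
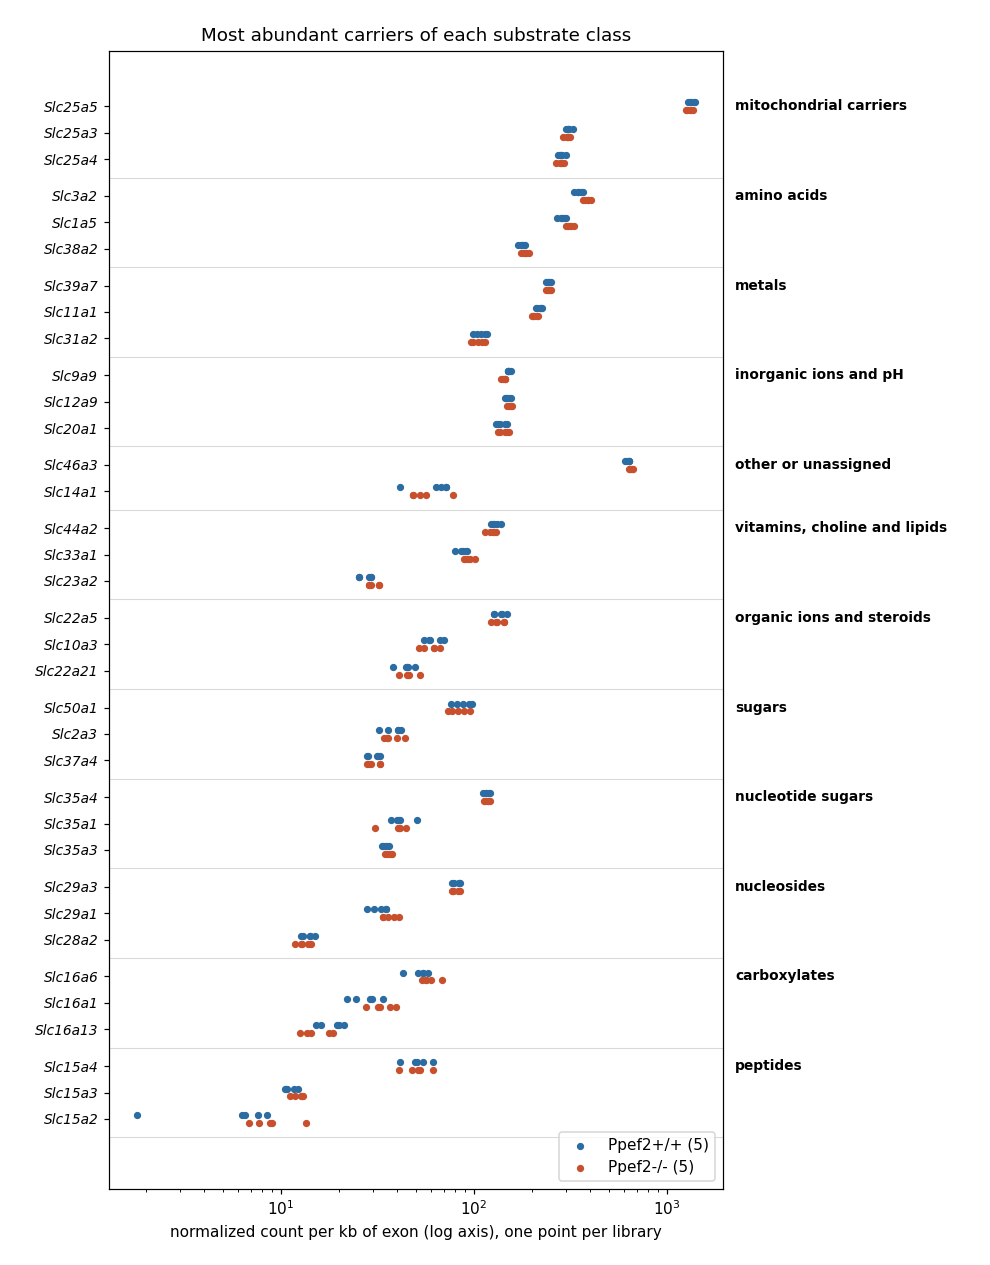
Level of the 3 most abundant carriers of each substrate class in normalized counts per kb of exon (log axis), with 1 point per library for 5 Ppef2+/+ and 5 Ppef2-/- libraries; the class of 2 unassigned genes has 2 rows. Slc25a5 is the highest at 1344 and the genotypes lie close together for most genes; the single low point of Slc15a2 is the Ppef2+/+ library of sort 3.

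The SLC25 family, most of whose members are carriers of the inner mitochondrial membrane, was the class with the highest level. Its 36 genes, which include the peroxisomal carrier gene Slc25a17 and Slc25a46 of the outer mitochondrial membrane, summed to 3544 ± 63.4 (SD, n = 5) normalized counts per kb in Ppef2+/+ and 3459 ± 63.4 in Ppef2-/- libraries, or 36% of the level of all Slc genes. Slc25a5, one of the ADP/ATP exchangers, had 2199, 2299, 2177, 2110 and 2278 normalized counts in the Ppef2+/+ and 2166, 2065, 2187, 2254 and 2086 in the Ppef2-/- libraries, each in the order of the sorts. These values overlapped between genotypes. Slc25a5 has many near-identical copies in the genome and resembles Slc25a4, so its level depends on how such reads were assigned, which is not given in the sources used here. The phosphate carrier Slc25a3 had 309.5 ± 9.69, the second ADP/ATP exchanger Slc25a4 284 ± 9.41 and the oxoglutarate carrier Slc25a11 282 normalized counts per kb. The order of these genes, with Slc1a5 (287 ± 11.6) between them, was not resolved because the libraries of neighbours overlapped.

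The second gene in the order of all carriers was Slc46a3, which encodes a lysosomal carrier. It had 629 ± 12.4 (SD, n = 5) normalized counts per kb in Ppef2+/+ libraries, and its lowest library (609.6) was above the highest library of the next gene, Slc3a2 (369). The gene maps to chromosome 5 of mm10 (GRCm38), minus strand, positions 147878437 to 147894815. Its 2 relatives on the list of carriers known in dendritic cells, Slc46a1 and Slc46a2, were not in the table, and neither was the cystine transporter gene Slc7a11.

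Of the 22 amino acid transporter genes, Slc3a2 (350.3 ± 14.3), the glutamine transporter gene Slc1a5 (287 ± 11.6) and Slc38a2 (178 ± 5.82 normalized counts per kb, SD, n = 5), which encodes a sodium-coupled neutral amino acid transporter, had the highest levels in Ppef2+/+ cDC1. The light chain gene Slc7a5 was at 67.4 ± 2.51 and Slc38a1, a relative of Slc38a2, at 59.4 ± 3.51. This order depended on the length used, since the longest transcript gave 71.1 for Slc7a5 and 141 for Slc38a1. The class summed to 1468 ± 24.6 in Ppef2+/+ and 1529 ± 24.6 normalized counts per kb in Ppef2-/- libraries. Its sum was higher in Ppef2-/- in every sort, by 22.5, 7.32, 116, 108 and 52.7 in sorts 1 to 5. Slc3a2 and Slc1a5, at 386 and 315 normalized counts per kb in Ppef2-/-, differed together by as much as the class.

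Among 25 metal transporter genes, Slc39a7, which releases zinc from the endoplasmic reticulum, had 244 ± 5.41, the phagosomal metal exporter gene Slc11a1 218 ± 6.62 and Slc31a2, a copper transporter gene, 109 ± 7.44 normalized counts per kb in Ppef2+/+ libraries. The iron importer gene Slc11a2 had 32.1 ± 1.14, the zinc exporter gene Slc30a1 18.1 ± 2.91, the iron exporter gene Slc40a1 8.07 ± 2.77 and Slc39a8, which encodes a zinc importer, 2.29 ± 0.26. In the 22 genes for inorganic ions and pH, the endosomal sodium/proton exchanger gene Slc9a9 (152 ± 2.79), Slc12a9 (149.7 ± 3.93) and the phosphate transporter gene Slc20a1 (138 ± 7.7) were the highest. Their libraries overlapped in part in the deposited values. With the sort means put back, Ppef2+/+ libraries of Slc20a1 ranged from 487 to 1089.8 normalized counts before division by length.

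Sugar carriers had lower levels. Slc50a1 had 87.7 ± 8.74, Slc2a3 38.2 ± 4.07 and the glucose 6-phosphate transporter gene Slc37a4 30.5 ± 2.2 normalized counts per kb, compared to 27.2 ± 3.6 for Slc2a1. Both Slc2a genes encode glucose transporters of the plasma membrane. With the longest transcript as length, Slc37a1 (48.7) was above Slc2a3 (44.3) and Slc37a4 (37.2). Slc37a2 was at 6.79 ± 0.75. For monocarboxylates, Slc16a6 had 52.2 ± 5.69, the lactate and pyruvate transporter gene Slc16a1 27.8 ± 4.59 and Slc16a13 18.5 ± 2.63, whereas Slc16a3, which encodes a lactate exporter, had 3.27 ± 0.82. Exons of Slc16a6 share 21.5% of their length with Amz2 on the opposite strand, and whether the counting used the strand is not given in the sources used here.

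The peptide class comprised 3 genes. Slc15a4 had 51.6 ± 7.36, Slc15a3 11.2 ± 0.779 and Slc15a2, whose protein imports peptides at the plasma membrane, 6.13 ± 2.58 normalized counts per kb. Of the exon length of Slc15a3, 28.1% overlaps with Tmem132a on the opposite strand, so that its level is uncertain. The nucleoside class was led by the lysosomal transporter gene Slc29a3 (81.9 ± 3.42), followed by Slc29a1 (32.2 ± 3.12) at the plasma membrane and Slc28a2 (13.9 ± 0.952). Endolysosomal carriers thus had the highest level of their class for peptides and nucleosides, as did Slc46a3 over all classes but the mitochondrial one.

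In the remaining classes, the choline transporter-like gene Slc44a2 (129 ± 6.08), the acetyl-CoA transporter gene Slc33a1 (87.4 ± 4.9) and the vitamin C transporter gene Slc23a2 (27.6 ± 1.9) led the 11 genes for vitamins, choline and lipids. The carnitine transporter gene Slc22a5 (136 ± 9.11), Slc10a3 (61.9 ± 6.07, with 12.8% of its exons shared with Ubl4a on the same strand) and Slc22a21 (44.7 ± 4.15 normalized counts per kb) led the 10 genes for organic ions and steroids. Nucleotide sugar transporters supply glycosylation in the Golgi, and of their 5 genes Slc35a4 had 117 ± 3.44, the CMP-sialic acid transporter gene Slc35a1 42.1 ± 5.17 and Slc35a3 34.7 ± 1.29. The urea transporter gene Slc14a1 had 63 ± 12.5. Of the genes that are no carriers, Slc9a3r1 had 210.3 ± 11.3, Slc7a6os 34.3 ± 2.45, Slc4a1ap 30.6 ± 2.82, Slc9a3r2 15.2 ± 1.75 and Slc2a4rg-ps 10.5 ± 2.3 normalized counts per kb.

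Differences between genotypes were small. With limma on log2(normalized count + 1) and the sort as a block, 0 of the 163 Slc genes had an adjusted p under 0.05, and the lowest adjusted p was 0.995. In the whole table, 1 gene (0.00929%) passed, and this was Ppef2 (log2 difference -4.78, adjusted p = 0.00012 from limma). At an unadjusted p under 0.05 there were 7 Slc genes (4.29%), the same share as over all genes (4.29%). Of the 7, 6 were higher in Ppef2-/-, which is 3.68% of the Slc genes, compared to 2.3% of all genes (248) higher at this limit. The other 1 was lower (0.613% of the Slc genes). In the whole table, 248 of the 462 genes at this limit were higher and the rest lower. limma's voom on reads gave 0 genes with an adjusted and 4 of 153 with an unadjusted p under 0.05, and the share of all genes was not calculated for this unadjusted count. The log2 difference of the Slc genes had a median of -0.02 (0.00 over all genes) and ranged from -0.58 to 0.69, and 132 of the 163 lay within 0.2 of 0. The 95% interval of a gene reached 0.24 to either side in the median and from 0.10 to 1.00 over the Slc genes, narrow for abundant genes and wide for those with few reads. These intervals are not adjusted for the number of genes, and an adjusted p under 0.05 asks for a larger change. Slc25a12, for example, had -0.21 (-0.37 to -0.05) with an adjusted p of 0.995 from limma.

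**Figure D2:**
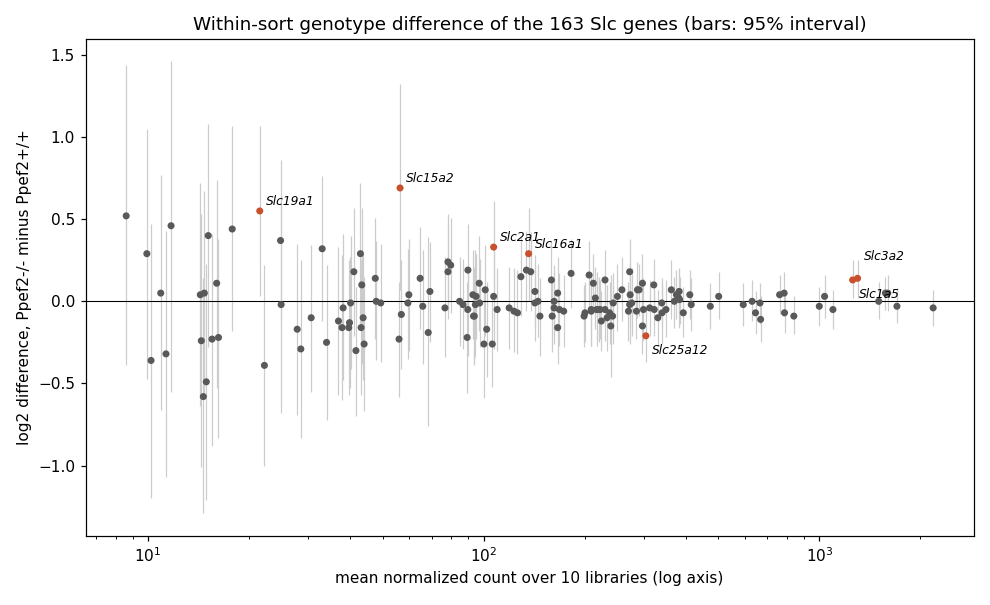
Log2 difference of Ppef2-/- minus Ppef2+/+ within sorts (vertical axis, pseudocount 1) against the mean normalized count (log axis) for the 163 Slc genes; bars are 95% intervals of the blocked fit and the 7 genes with an unadjusted p under 0.05 are named. The intervals widen toward low counts, and the adjusted p was at least 0.995 for every point.

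In sorts 1 to 5, 68, 75, 90, 71 and 99 of the 163 Slc genes were higher in the Ppef2-/- library. The direction of the family therefore changed from sort to sort, between 41.7% and 60.7% of genes higher, while 49 to 52.3% of all genes were higher. By class, the median log2 difference was between -0.08 for organic ions and steroids and 0.14 for the 3 peptide transporter genes. Of all Slc genes 94 were below 0 and 69 above (57.7% below, compared to 49.5% of all genes). Of the 25 metal transporter genes 18 were below and 7 above, of the 36 SLC25 genes 23 and 13. The genes for organic ions and steroids had 8 below and 2 above, those for inorganic ions and pH 12 and 10. Amino acid transporter genes were split 11 and 11, sugar carriers 6 and 6, and carboxylate carriers 3 and 3. Nucleoside carriers had 3 below and 1 above, and peptide carriers 1 and 2. Of the 11 genes for vitamins, choline and lipids 4 were below and 7 above, of the 5 nucleotide sugar transporter genes 1 and 4.

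Slc3a2 had 1219, 1269, 1219, 1172 and 1303 normalized counts in the 5 Ppef2+/+ libraries, in the order of the sorts, and 1378, 1328, 1379, 1426 and 1295 in those of Ppef2-/-. It was higher in Ppef2-/- in 4 of 5 sorts, and the values of sort 5 were nearly equal. The mean within-sort difference was 125 ± 101 normalized counts (SD, n = 5), a log2 difference of 0.14 (standard error 0.05, 95% interval 0.02 to 0.25, adjusted p = 0.995 from limma). Slc1a5, whose protein delivers glutamine, showed values of 1189, 1228, 1129, 1186 and 1257 in Ppef2+/+ and 1322, 1283, 1382, 1325 and 1255 in Ppef2-/- libraries. It also differed least in sort 5 (-2.02) and most in sort 3 (254), with a log2 difference of 0.13 (standard error 0.05, adjusted p = 0.995 from limma). Both genes had values over 1000, so that their reads and their spread between sorts were not recovered.

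Of the 22 amino acid transporter genes, 11 had a log2 difference above 0 and 11 below 0, and only these 2 had an unadjusted p under 0.05. Slc7a5, the partner of Slc3a2, had a log2 difference of -0.09 (95% interval -0.26 to 0.08) and was lower in 4 of 5 sorts. Slc38a2 was at 0.05 (-0.06 to 0.16) and Slc38a1 at 0.03 (-0.10 to 0.16). Of 37 measured genes for amino acid sensing and mTORC1, 0 had an adjusted p under 0.05, and the median log2 difference of the list was 0.01. At an unadjusted p under 0.05 Fnip1 was higher (0.25) and Tfe3 lower (-0.17), while 4.29% of all genes passed this limit. Both had an adjusted p of 0.995 from limma. Fnip1 encodes a partner of folliculin in nutrient signalling, and Tfe3 a transcription factor of lysosomal genes.

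The glucose transporter gene Slc2a1 had 79.4, 92, 114, 98.6 and 92 normalized counts in Ppef2+/+ and 135, 123, 101, 116 and 123 in Ppef2-/- libraries. The Ppef2-/- library was higher in sorts 1, 2, 4 and 5 and lower in sort 3, which gave a log2 difference of 0.33 (95% interval 0.05 to 0.61, unadjusted p = 0.024, adjusted p = 0.995 from limma). Slc2a3 had a log2 difference of -0.01 (-0.21 to 0.20). For the lactate transporter gene Slc16a1, the within-sort differences were -26.4, 9.83, 54.6, 77.9 and 16.7 normalized counts. The log2 difference of 0.29 (standard error 0.14, adjusted p = 0.995 from limma) decreased to 0.16 (95% interval -0.12 to 0.43) when the sort means were put back. Its differences were largest in the sorts in which Slc16a1 itself was highest.

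Slc15a2 had the largest log2 difference of all Slc genes, 0.69 (95% interval 0.07 to 1.32, unadjusted p = 0.031, adjusted p = 0.995 from limma). This value rests on sort 3. The within-sort differences were 0.631, -12.2, 86.1, 20 and 16.8 normalized counts, and without sort 3 the log2 difference was 0.16. In reads, Slc15a2 had 26, 28, 25, 87 and 34 in Ppef2+/+ and 78, 44, 132, 95 and 37 in Ppef2-/- libraries. With the sort means put back, the library pair of sort 3 was at 37.6 and 124 normalized counts and the log2 difference over all sorts was 0.41 (-0.04 to 0.86). Slc15a4 (-0.02, 95% interval -0.26 to 0.22) and Slc15a3 (0.14, -0.17 to 0.45) did not pass at an unadjusted p under 0.05.

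Slc genes with the same direction in all 5 sorts were few. There were 4 higher in Ppef2-/- in every sort (2.45%, compared to 3.26% of all genes) and 4 lower in every sort (2.45%, compared to 2.92% of all genes), so the shares of the Slc genes were at or below those of the table. The exact two-sided test that exchanges genotypes within 5 sorts cannot give a p-value below 0.0625, and each of the 8 genes had this value.

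The 4 higher genes were Slc19a1, Slc6a12, Slc19a2 and Slc46a3. Slc19a1, which encodes the reduced folate carrier, had 20, 16.3, 15.8, 17.2 and 17 normalized counts in Ppef2+/+ and 23, 26.7, 27.2, 25.8 and 26 in Ppef2-/- libraries. The genotypes did not overlap on this scale, from which the spread between sorts is missing. Slc19a1 was a low gene, with 77 reads in all Ppef2+/+ and 155 in all Ppef2-/- libraries, sums that are not corrected for depth. Once the sort means were put back, its libraries ranged from 12 to 23.9 in Ppef2+/+ and from 15.3 to 32.9 in Ppef2-/- and overlapped. The log2 difference was 0.55 (standard error 0.25, 95% interval 0.03 to 1.07, adjusted p = 0.995 from limma). Slc19a2, a thiamine transporter gene of the same family, had a log2 difference of 0.24 (-0.05 to 0.53), with values of 62.2 to 74.9 in Ppef2+/+ and 81.5 to 94.2 in Ppef2-/- libraries. With the sort means put back, libraries of Slc19a2 ranged from 46.5 to 93.2 in Ppef2+/+ and from 70.9 to 100.2 in Ppef2-/- and overlapped.

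The betaine and GABA transporter gene Slc6a12 was at 21.5 ± 2.09 in Ppef2+/+ and 28.1 ± 2.09 normalized counts in Ppef2-/- (SD, n = 5), a log2 difference of 0.37 (-0.12 to 0.86). These SDs leave out the spread between sorts. With the sort means put back, libraries of Slc6a12 overlapped between genotypes and the log2 difference was 0.36 (-0.14 to 0.86). The abundant Slc46a3 had 1498, 1562, 1532, 1572 and 1563 normalized counts in Ppef2+/+ and 1648, 1584, 1615, 1574 and 1583 in Ppef2-/- libraries. Its log2 difference was 0.05 (95% interval -0.05 to 0.15). The difference in sort 4 was 1.55 normalized counts, and after the size factors were computed again Slc46a3 was higher in 4 of 5 sorts.

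**Figure D3:**
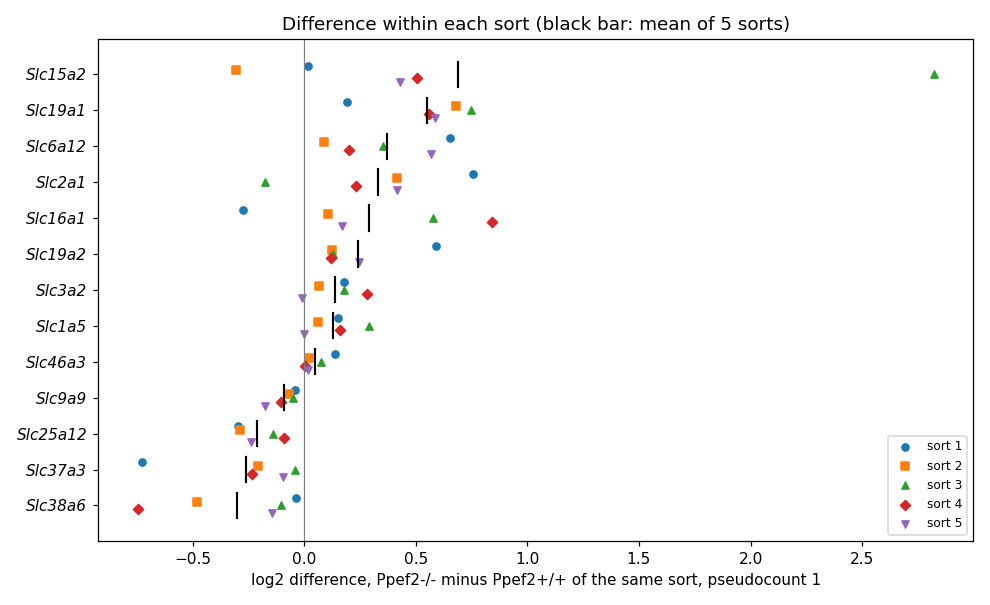
Log2 difference of Ppef2-/- minus Ppef2+/+ (horizontal axis, pseudocount 1) in each of the 5 sorts, shown by symbol, for the 13 Slc genes with the same direction in every sort or an unadjusted p under 0.05; the black bar is the mean. The mean is between -0.30 for Slc38a6 and 0.69 for Slc15a2, and the symbol of sort 3 lies far to the right for Slc15a2.

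Lower in every sort were Slc38a6, Slc37a3, Slc25a12 and Slc9a9. Slc25a12, whose protein exchanges aspartate and glutamate across the inner mitochondrial membrane, maps to chromosome 2 of mm10, minus strand, positions 71271063 to 71367749. Its values were 335, 335, 319, 314 and 329 in Ppef2+/+ and 273, 274, 289.8, 295 and 279 in Ppef2-/- libraries, without overlap. The within-sort differences were -61.8, -60.6, -29.1, -19.8 and -50.1 normalized counts, and the log2 difference was -0.21 (standard error 0.07, 95% interval -0.37 to -0.05, unadjusted p = 0.011, adjusted p = 0.995 from limma). With the sort means put back, the log2 difference was also -0.21, but libraries ranged from 281 to 364 in Ppef2+/+ and from 251 to 314 in Ppef2-/- and overlapped. The gene had 1375 reads in Ppef2+/+ and 1895 in Ppef2-/- libraries. These sums are not corrected for depth, which reached 2273488 reads in Ppef2+/+ and 4408898 in Ppef2-/- libraries.

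Slc9a9 was at 865 ± 15.8 in Ppef2+/+ and 813 ± 15.8 normalized counts in Ppef2-/- (SD, n = 5). All 5 sorts were lower, with differences of -25.2 to -103 normalized counts and a log2 difference of -0.09 (-0.20 to 0.03). With the sort means put back, libraries of Slc9a9 overlapped between genotypes and the log2 difference was -0.09 (-0.20 to 0.02). The amino acid transporter gene Slc38a6 had log2 differences of -0.30 (-0.70 to 0.09) and Slc37a3, a sugar phosphate exchanger gene by family, of -0.26 (-0.52 to 0.01). Most of the difference of Slc37a3 came from sort 1 (-52.4 normalized counts, compared to -2.85 to -17.6 in the other sorts).

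In the one-way model of the study's methods, without a term for the sort, 2 Slc genes had an adjusted p under 0.05 by limma: Slc25a12 (adjusted p = 0.031) and Slc19a1 (adjusted p = 0.048), or 1.23% compared to 0.957% of all genes. On values from which the sort means were removed, such a fit leaves out the spread between sorts, and both genes had an adjusted p of 0.995 in the blocked fit. Neither passed in any of the 10 fits that left out 1 library. No Slc gene passed the thresholds of the study, which ask for means that differ by more than 2-fold together with an unadjusted p-value not above 0.01.

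Transporter genes outside the symbol pattern were as close between genotypes. Of 19 other SLC genes, 29 genes of ABC transporters and 18 genes of subunits of the vacuolar proton pump, which acidifies lysosomes, 0 had an adjusted p under 0.05 in the blocked fit by limma. At an unadjusted p under 0.05, which 4.29% of all genes passed, 1 gene of these lists passed, Abcb1a with a log2 difference of -0.46. The medians of the lists were between -0.00 and 0.05. Among 20 measured carriers known in dendritic cells, the median was 0.04, with 5 higher (Slc3a2, Slc1a5, Slc2a1, Slc16a1 and Slc19a1) and 0 lower at an unadjusted p under 0.05, compared to 2.3% of all genes higher at this limit. All 5 are among the Slc genes already given at this limit, each with an adjusted p of 0.995 from limma. The list was chosen with earlier results known, so its count cannot be tested against the share of all genes. With the sort means put back, Slc16a1 had an unadjusted p of 0.25 in the blocked limma fit, and Slc3a2 and Slc1a5 could not be tested.

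The spread between sorts, which the deposited values lack, was also described. After the values had been seen, the 5 sorts were compared with limma's F test on log2(normalized count + 1) with the sort means put back and the genotype in the fit. Of 153 Slc genes, 10 (6.54%) differed between sorts at an adjusted p under 0.05, compared to 6.56% of all 9619 resolved genes. The share of Slc genes was that of the table, so a difference between sorts was not particular to carriers. Of the 10, 8 were higher in sorts 3 and 4 than in sorts 1, 2 and 5 by their sort means, and 2 were lower. Over all genes that differed between sorts, the split was similar, with 70.7% higher and 21.9% lower in sorts 3 and 4. The values of the 10 genes are given as a description. The labels give only the number of a sort, and a difference between the pooled mice and one in handling cannot be told apart.

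**Figure D4:**
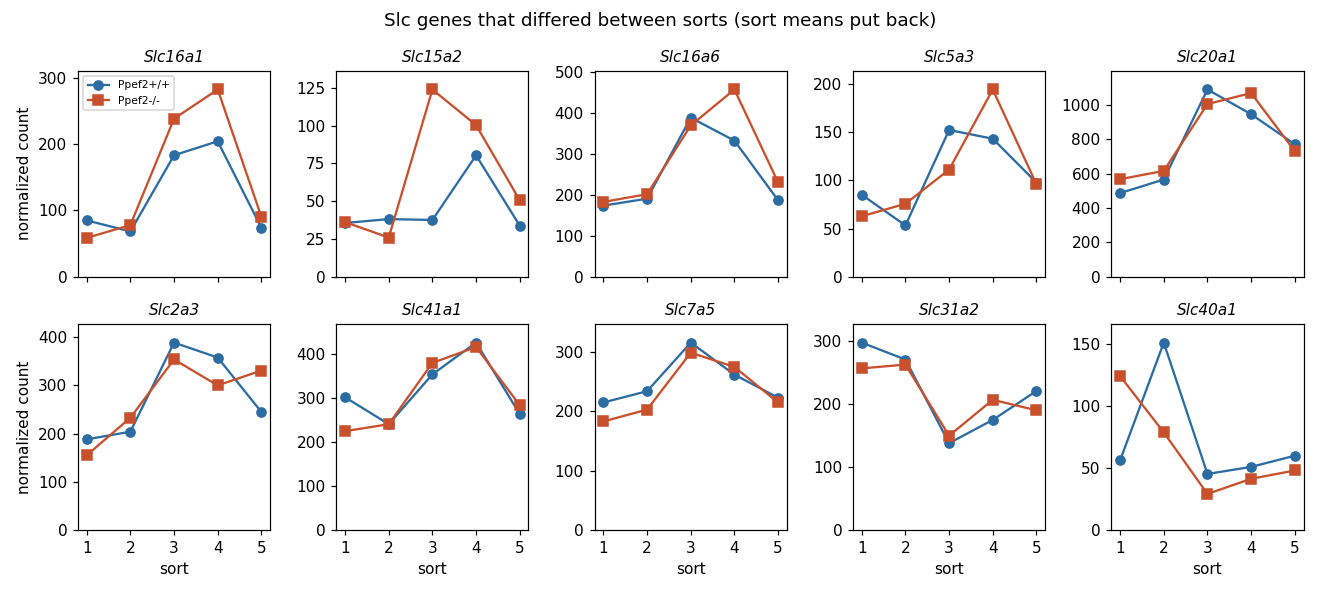
Normalized counts with the sort means put back (vertical axis, from 0) in sorts 1 to 5 for the 10 Slc genes that differed between sorts, for Ppef2+/+ and Ppef2-/- libraries. Both genotypes follow the same course in most panels, with sorts 3 and 4 high in 8 genes and low in Slc31a2 and Slc40a1.

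Of the 10 genes, Slc16a1 had the highest ratio of sorts 3 and 4 to the others. With sort means put back, it was at 84.9, 68.2, 183, 204 and 73.7 normalized counts in Ppef2+/+ and 58.5, 78, 238, 282 and 90.4 in Ppef2-/- libraries of sorts 1 to 5. Sorts 3 and 4 did not overlap with the others, and their mean was 3-fold higher (227 compared to 75.6, adjusted p = 4.7e-08 from limma). The related Slc16a6 was 1.99-fold higher (adjusted p = 2.0e-07) and the phosphate transporter gene Slc20a1 1.65-fold, with 487, 566, 1090, 946 and 771 normalized counts in Ppef2+/+ and 568, 616, 1005, 1069 and 731 in those of Ppef2-/- (adjusted p = 3.8e-09 from limma). For both, every library of sorts 3 and 4 was above every other library.

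The glucose transporter gene Slc2a3 was 1.55-fold higher in sorts 3 and 4 (adjusted p = 2.4e-05 from limma), although the Ppef2-/- library of sort 5 (331) was above that of sort 4 (300.1). Slc5a3, which encodes a myo-inositol transporter and shares 1.46% of its exons with Mrps6 on the same strand, was 1.92-fold higher, and the magnesium transporter gene Slc41a1 1.52-fold. Slc7a5 had 215, 234, 316, 262 and 223 normalized counts in Ppef2+/+ and 183, 203, 299, 275 and 215 in Ppef2-/- libraries, a 1.35-fold higher mean (adjusted p = 0.013 from limma). For Slc15a2 the fold was 2.33 (adjusted p = 0.016 from limma), but the Ppef2+/+ library of sort 3 (37.6) was as low as those of sorts 1, 2 and 5. Its call was lost without sort 4, and that of Slc7a5 without sort 1 or without sort 3.

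Slc31a2 had 298, 271, 138, 175 and 221 normalized counts in Ppef2+/+ and 257, 263, 149.9, 207 and 190.3 in Ppef2-/- libraries, with a mean in sorts 3 and 4 of 0.67 times that of the others (adjusted p = 0.00024 from limma). Slc40a1 had 56.1, 151, 45.1, 50.8 and 59.8 in Ppef2+/+ and 124, 78.6, 29, 41.2 and 47.9 in Ppef2-/- libraries. The highest values of this iron exporter gene were the Ppef2+/+ library of sort 2 and the Ppef2-/- library of sort 1. Its call (adjusted p = 0.0064 from limma) was lost without sort 2. The complement genes C1qa, C1qb and C1qc, markers of macrophages, were also highest in one of these 2 libraries, C1qa in Ppef2-/- of sort 1 (53.4), and C1qb (66.8) and C1qc (49.1) in Ppef2+/+ of sort 2. The 11 macrophage and monocyte markers in the table summed to 2112 to 2515 normalized counts in Ppef2+/+ libraries, with the highest sum in sort 2, and to 2109.6 to 2266 in Ppef2-/- libraries, with the highest sum in sort 1. Spic, a factor of red pulp macrophages, was highest in the Ppef2+/+ library of sort 4 (62.8), and Mertk and Fcgr1 were not listed. The part of macrophages in the values of Slc40a1 was not tested.

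Genes outside the carriers differed between the same sorts. Crem, a transcription factor gene induced by cAMP, had 19.2, 23.2, 78.2, 71.2 and 28.9 normalized counts in Ppef2+/+ and 17.2, 14.2, 66.5, 94.1 and 28.8 in Ppef2-/- libraries, and Fosl2 67.1, 116, 347, 431 and 121 in Ppef2+/+ and 83.6, 98.1, 318, 463 and 164 in Ppef2-/- libraries. Both were over 3-fold higher in sorts 3 and 4 (3.54 and 3.59) and were chosen after their values had been seen. Their part in the pattern of the carriers was not tested.

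For the 10 genes that differed between sorts, of which 8 were higher and 2 lower in sorts 3 and 4, the promoters (250 bases before to 50 after the transcript start, RefSeq, build GRCm38.p6) were searched for the E-box CACGTG, which reads the same on both strands and is bound by factors of the MYC and TFEB families. Of the 10 genes, 6 had a window in the table, and 3 of these held the motif. It was found in 7.15% of 32851 windows of all genes. Counted per gene, 2187 of 27025 genes with a window (8.09%) and 22 of the 123 Slc genes with a window (17.9%) held it in at least 1 window. The 10 genes were picked by their differences between sorts in these data, and 3 of 6 was not tested against these shares. Those of the 3 genes are shown in part, on the plus strand, with the motif in capitals:
Slc20a1, chr2:129198538-129198772: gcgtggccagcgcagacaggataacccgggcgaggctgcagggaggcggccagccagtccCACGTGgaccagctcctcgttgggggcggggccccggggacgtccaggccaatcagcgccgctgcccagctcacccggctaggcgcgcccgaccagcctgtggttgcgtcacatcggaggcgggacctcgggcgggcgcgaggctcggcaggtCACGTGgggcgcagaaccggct
Slc16a1, chr3:104638414-104638529: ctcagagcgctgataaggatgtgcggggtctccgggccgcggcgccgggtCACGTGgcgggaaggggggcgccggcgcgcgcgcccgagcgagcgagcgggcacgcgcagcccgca
Slc31a2, chr4:62286369-62286434: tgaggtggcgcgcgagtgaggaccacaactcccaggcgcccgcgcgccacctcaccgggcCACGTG

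Slc20a1 held 2 matches, which begin 175 and 22 bases before the transcript start, and Slc16a1 held 1, which begins 200 bases before it. In Slc31a2 the match begins at the start itself, and the RefSeq start used there lies within the GENCODE gene. The motif was thus present in 2 genes that were higher and in 1 that was lower in sorts 3 and 4. These are matches of letters, and binding was not measured.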

How the data were processed

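Libraries of poly-A mRNA were read from a single end over 50 bp. The authors aligned reads to mm10 (HISAT in the methods, TopHat2 2.0.3 in the submitters' processing notes), counted them per RefSeq gene in Partek 6.6, normalized with DESeq2, set values under 1 to 1 and dropped genes with both genotype means under 10. What the authors deposited is a signal in normalized counts with each gene's sort means removed, and raw counts were not used. Every one of the 10 columns was analysed.

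Reads were solved as whole multiples of the value of 1 read for 9619 of the 9627 genes with all values under 1000. Genotypes were compared with limma 3.58.1 (R 4.3.3; lmFit, eBayes with trend, two-sided) on log2(value + 1), a scale that understates changes of low genes. The fit had the sort as a block and Benjamini-Hochberg adjustment over 10767 genes. The pairing comes from the sort numbers in the labels. With the sort means put back, deviations of both libraries of a sort correlated with r = 0.28, 0.12, 0.27, 0.29 and 0.02 for sorts 1 to 5. The study's methods name a one-way model, given as a second fit. Lengths and positions are from GENCODE M21 (GRCm38), as the union of exons. The read solver and the fits were tested on simulated data. P-values of the blocked fit rest on the spread of the within-sort differences between pools of 3 mice, with variances moderated over genes by eBayes. Those of the fit without a sort term lack the spread between sorts.

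The Slc genes, substrate classes, gene lists and tests were chosen with earlier results of these data known. Genes named were the 3 most abundant per class, carriers known in dendritic cells, those with an adjusted p under 0.05 in either fit, the 5 largest rises and 5 largest falls among genes with 1 direction in 5 of 5 sorts, those past the study's thresholds, and symbols that are no carriers. Slc25a11, Slc25a17, Slc25a46, the genes of the comparison of sorts, Fnip1, Tfe3 and Abcb1a were chosen after their values were seen. Protein sequences were not analysed here.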

Additional observations from a re-analysis of the deposited data

Results flagged for a closer look

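Dixon's ratio was used to ask whether the lowest or highest library of a genotype lay apart from the rest, for 57 genes and 114 groups in all, of which about 5.7 do so by chance. It did in 4 groups, which are 2 pairs of mirror images that follow from the removal of the sort means. For Slc14a1, the Ppef2+/+ library of sort 5 had the lowest value (166 normalized counts, with 253 to 286 in the other Ppef2+/+ libraries), and the Ppef2-/- library of that sort the highest (313, with 193 to 226 in the other Ppef2-/- libraries). In reads, these libraries held 151 and 217, and Slc14a1 was lower in Ppef2-/- in the 4 other sorts. For Slc19a2, the Ppef2+/+ library of sort 1 was lowest (62.2, with 71.5 to 74.9 in the others) and the Ppef2-/- library of sort 1 highest (94.2, with 81.5 to 84.9 in the others), and its direction was the same in every sort.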

How the results depend on the processing

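The count of 0 Slc genes with an adjusted p under 0.05 in the blocked limma fit stayed at 0 with other pseudocounts (0.5 and 10), a mean of at least 50, eBayes without a trend, recomputed size factors, the sort means put back, voom on reads and each sort left out, and was 2 without the replicate block. The 7 genes with an unadjusted p under 0.05 became 3 of 153 with the sort means put back and the block, 4 of 153 with voom and 27 without the block, and ranged from 4 to 8 when a sort was left out, with 4 without sort 3. In the fit without a sort term, 2 genes had an adjusted p under 0.05, 3 with eBayes without a trend, 1 with a pseudocount of 0.5 or a mean of at least 50, and 0 with the replicate block, with the sort means put back (chosen after the data were seen) or in any of the fits that left out a library (0 to 0). Its 27 genes with an unadjusted p under 0.05 became 7 with the block and 1 with the sort means put back, and ranged from 16 to 29 when a library was left out, lowest without the Ppef2+/+ (17) or the Ppef2-/- library (16) of sort 3. Of the 4 genes that were higher in every sort, 2 had a mean of at least 50 (3 of the 4 lower genes did). With 4 sorts in place of 5, 7 to 12 genes were higher and 7 to 12 lower in each sort. Shares of all genes were not calculated for 4 sorts, or for unadjusted counts outside the main blocked fit. Those counts, among them the 27, therefore cannot be set against the whole table. Recomputed size factors moved 1 of these 8 genes, Slc46a3. The median log2 difference stayed between -0.03 and 0.00. The leading gene stayed the same in 11 of 12 classes with the longest transcript as length (Slc11a1 in place of Slc39a7), in 8 of 12 without division by length and in 11 of 12 in Ppef2-/- libraries. Places below the leading gene also depended on the length. With the longest transcript, Slc35a3 (65.5 normalized counts per kb in Ppef2+/+) was above Slc35a1 (47.4), and Slc37a1 and Slc38a1 moved up as given above. For the 13 genes with the same direction in every sort or an unadjusted p under 0.05, 0 reversed under any alternative of the blocked fit. Slc genes that differed between sorts numbered 11 with a pseudocount of 10 or a mean of at least 50, 13 with voom and 9 to 13 without a sort, and 9 or 10 of the 10 genes were kept. The causes of these changes were not tested. Depth limits the low genes most: a carrier with few reads per library has the widest interval.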
